A study of Mus musculus with 70 samples.

Results

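The 10 core genes of the circadian clock, *Arntl*, *Clock*, *Per1*, *Per2*, *Per3*, *Cry1*, *Cry2*, *Nr1d1*, *Nr1d2* and *Dbp*, were followed across an expression atlas of mouse brain regions that regulate energy balance. They were taken by name from the 34677 genes of the gene-level table and not by a rule on their values. Earlier results of these data were known when they were chosen. Each of the 10 was found and passed the filter on low counts in every comparison. Levels are given in TPM, a unit of transcript abundance scaled to transcript length and library size, which can therefore be compared between genes. Differences are given as log2 differences from a model of the read counts, and a gene was called between groups at an adjusted p under 0.05 with at least a 1.5-fold difference.

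The atlas held 70 libraries of C57BL/6 origin in 24 groups, the animals being C57BL/6NTac by the study's methods. The adult groups were punches of 18 regions from P56 males, in 57 libraries. These were the arcuate (ARH), dorsomedial (DMH), paraventricular (PVH) and ventromedial (VMH) hypothalamic nuclei and the lateral hypothalamic area (LHA), the parabrachial nucleus (PB), the nucleus of the solitary tract (NTS) and the dorsal vagal complex (DVC), the anterior cingulate area (ACA), frontal pole (FRP) and entorhinal area (ENT) of the cortex, 4 parts of the cerebellar cortex (CENT2, CUL4-5, UVU and FL, the last being the flocculus), the cerebellar nuclei (CBN), the nucleus accumbens (ACB) and the ventral tegmental area (VTA). The embryonic groups, at E14.5, were forebrain (F, 1 library), midbrain (M, 2), hindbrain (H, 3) and terminal and peduncular hypothalamus (THy-PHy, 3), and 2 lines of mouse embryonic stem cells (mESCs), B6-1 and B6-2, had 2 libraries each. No genetic change or treatment of the animals is stated. The mESCs, each line being 1 clone, were moved off feeder cells onto gelatin for RNA and grown in part in medium conditioned by fibroblasts, with LIF and the kinase inhibitors CHIR-99021, CI-1040 and PD0325901. Adult punches were pooled over several mice, apart from ACB replicate 1, which came from 1 mouse, so that the spread between replicates is a spread between pools. The suprachiasmatic nucleus, the site of the central clock, was not among the dissected regions.

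Mice were kept under a daily cycle of light and dark, and the hour of dissection is not given in the sources used here. By the study's methods samples were both collected and prepared in batches, and the study states which batches contributed to each region. Libraries were assigned to batches by the order of their library numbers, so that the batch of a library is inferred here. Regions of one batch appear to come from the same mice. Total counts ran from 9074580 to 22229582 per library. VTA replicate 1 stood apart, with 39.6% of its TPM in mitochondrial genes and the lowest adult level of 8 of the 10 genes. H replicate 1, with 22.6%, had the next highest mitochondrial share and the fewest counts. For the 10 genes, called differences of VTA and statements that VTA was the lowest region are given with and without VTA replicate 1. Other values that involve VTA include that library unless stated.

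In the clock of mammals, BMAL1 (the product of *Arntl*) and CLOCK pair on E-box sequences and switch on the *Per* and *Cry* genes, whose proteins return to block the pair. The same pair drives *Nr1d1* and *Nr1d2*, which encode the nuclear receptors REV-ERB alpha and beta that repress *Arntl*, and *Dbp*, which encodes an output factor that binds D-box sequences. Because the loop turns once a day, most of these transcripts rise and fall with the hour, *Arntl* out of phase with *Per1*, *Nr1d1* and *Dbp*, while *Clock* varies little in most tissues. *Per1* also answers quickly to neuronal activity, light and glucocorticoids.

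The promoters of the genes on which the results below turn are shown so that these elements can be seen. Each is the 250 bases before the first listed start in RefSeq on GRCm38.p6, read 5′ to 3′ on the strand of the gene. Capitals mark an E-box (CACGTG), an E′-box (CACGTT or its reverse complement AACGTG) or a D-box (TTATGTAA), searched on both strands. Of the 10 genes, 9 had a sequence, *Per2* being the exception.
Per1, chr11:69098699-69098948, plus strand: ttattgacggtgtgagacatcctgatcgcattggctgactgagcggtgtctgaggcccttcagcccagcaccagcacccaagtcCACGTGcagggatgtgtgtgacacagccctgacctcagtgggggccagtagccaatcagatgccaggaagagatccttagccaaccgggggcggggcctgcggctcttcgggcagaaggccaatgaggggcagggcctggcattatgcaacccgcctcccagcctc
Nr1d1, chr11:98775378-98775627, minus strand: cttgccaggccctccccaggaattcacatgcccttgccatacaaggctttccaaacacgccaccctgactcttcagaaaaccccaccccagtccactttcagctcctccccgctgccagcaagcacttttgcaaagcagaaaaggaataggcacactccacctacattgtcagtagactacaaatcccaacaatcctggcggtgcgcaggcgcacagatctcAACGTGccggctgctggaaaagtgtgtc
Dbp, chr7:45704997-45705246, plus strand: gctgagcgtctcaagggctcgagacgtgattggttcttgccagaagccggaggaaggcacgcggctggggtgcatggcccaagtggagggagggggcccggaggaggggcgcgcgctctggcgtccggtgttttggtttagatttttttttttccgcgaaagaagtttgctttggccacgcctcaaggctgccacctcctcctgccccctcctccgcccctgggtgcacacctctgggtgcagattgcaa
Cry1, chr10:85185055-85185304, minus strand: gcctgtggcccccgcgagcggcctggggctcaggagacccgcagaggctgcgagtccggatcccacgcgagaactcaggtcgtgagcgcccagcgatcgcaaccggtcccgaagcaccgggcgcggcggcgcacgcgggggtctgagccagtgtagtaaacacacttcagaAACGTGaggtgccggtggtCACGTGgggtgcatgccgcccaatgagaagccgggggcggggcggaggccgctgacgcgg
Per3, chr4:151044666-151044915, minus strand: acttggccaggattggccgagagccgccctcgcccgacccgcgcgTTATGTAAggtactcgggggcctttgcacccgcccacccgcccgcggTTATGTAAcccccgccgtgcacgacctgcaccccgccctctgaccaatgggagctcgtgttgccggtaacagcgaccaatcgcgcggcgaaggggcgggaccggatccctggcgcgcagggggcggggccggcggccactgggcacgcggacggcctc
Ciart, chr3:95882229-95882478, minus strand: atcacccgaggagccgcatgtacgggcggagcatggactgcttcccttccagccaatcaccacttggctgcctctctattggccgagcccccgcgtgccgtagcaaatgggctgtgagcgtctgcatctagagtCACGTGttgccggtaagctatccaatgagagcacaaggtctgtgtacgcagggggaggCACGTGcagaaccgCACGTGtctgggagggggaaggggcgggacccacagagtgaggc
*Ciart*, a repressor of the BMAL1 and CLOCK pair that is not among the 10 genes, is shown because it moved with *Per1* between batches. The *Per1* window held 1 E-box at -166 from the start, *Ciart* held 3 E-boxes, *Cry1* an E-box at -60 and an E′-box at -79, *Nr1d1* an E′-box at -28, and *Per3* 2 D-boxes. The window of *Dbp* held none of these letters, and neither did the windows before the first start of *Arntl*, *Clock* and *Nr1d2*, while *Cry2* held an E′-box at -166. Among 32851 promoter windows of this length, 6.02% held the E-box, 3.85% the E′-box and 0.819% the D-box.

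Every one of the 10 genes differed among the 18 adult regions, which 90.2% of all 17787 genes tested did by the same edgeR quasi-likelihood test at an adjusted p under 0.05, so that a difference among regions did not set them apart. Between the regions with the highest and lowest fitted levels the log2 difference was 2.16 for *Cry1*, 2.06 for *Per1*, 1.97 for *Per2*, 1.67 for *Arntl* and 1.65 for *Dbp*. It was smallest for *Clock*, at 0.75. The median of the 10 was 1.54, and that of all genes tested was 1.56.

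**Figure D1:**
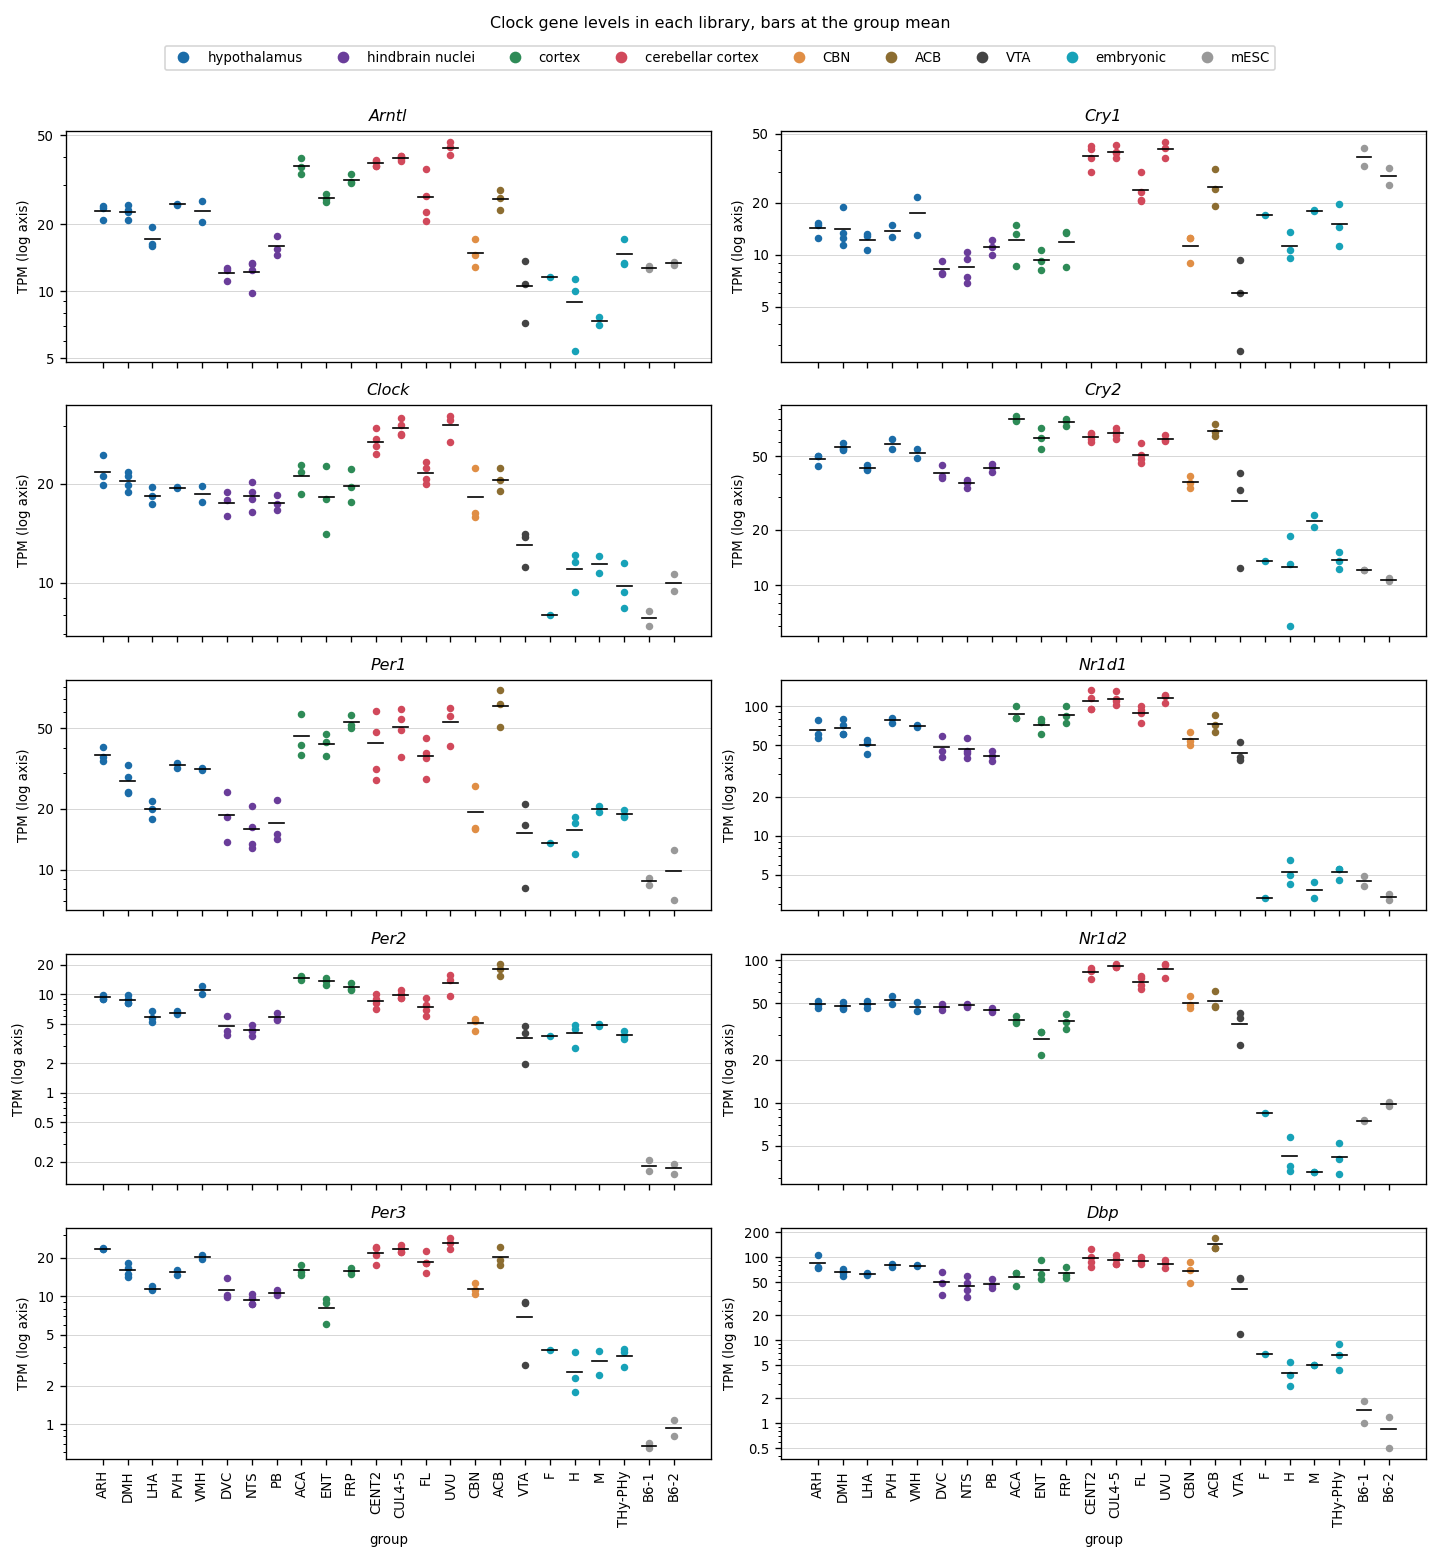
TPM of the 10 clock genes in each library (points, log axis) for the 24 groups, ordered by division and stage. The cerebellar cortex sits highest for *Cry1* and *Nr1d2*, ACB for *Dbp* and *Per2*, and the embryonic libraries lie below every adult library for *Nr1d1*, *Nr1d2* and *Dbp*.

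The 2 activators had their highest adult levels in the cerebellar cortex. *Arntl* was at 44.6, 46.9 and 40.7 TPM in the 3 libraries of UVU and at 7.20, 13.7 and 10.8 TPM in those of VTA, the lowest region, a ratio of means of 4.18. Without VTA replicate 1 the VTA mean was 12.2 TPM, next to DVC at 12.1 TPM, the lowest region, and the ratio was 3.64. The order of *Arntl* levels fell in steps, and 14 of the 17 pairs of neighbouring regions overlapped in their libraries, the breaks lying between UVU and CUL4-5, between ACA and FRP and between DMH and LHA. *Clock* was at 26.8, 32.2 and 31.4 TPM in UVU and at 11.1, 14.1 and 13.8 TPM in VTA, and 15 of its 17 neighbours overlapped. Its levels thus spanned a ratio of 2.31, or 2.16 without VTA replicate 1, in both cases the narrowest of the 10. Ratios and orders of this kind are on the TPM scale, where the median log2 difference of all genes in VTA was -0.52 (log2(TPM + 0.1)). By edgeR on counts *Clock* in VTA stood at -0.17 (adjusted p = 0.125), and at -0.39 without VTA replicate 1 (adjusted p = 0.00086).

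The period genes, whose products carry the negative limb of the loop, did not share one pattern. *Per1* was highest in ACB, with 66.1, 77.4 and 50.97 TPM, and lowest in VTA, with 8.11, 16.6 and 21.1 TPM. Without VTA replicate 1 the VTA mean was 18.8 TPM, and NTS, at 15.8 TPM, was the lowest region. *Per2*, expressed at lower levels throughout, was also highest in ACB, with 20.3, 18.1 and 15.4 TPM, and the only break between neighbouring regions lay between ACB and ACA, the latter at 13.9, 15.2 and 15.2 TPM. *Per3*, the member of the family with the mildest known role in rhythm, was instead highest in UVU, with 23.3, 26.1 and 28.4 TPM, followed by ARH, where the 3 libraries agreed closely at 23.5, 23.4 and 23.8 TPM. In ENT *Per3* was at 8.89, 9.59 and 6.02 TPM, whereas *Per2* there was at 13.5, 14.7 and 12.4 TPM, the third highest region of that gene.

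The cryptochromes, the partners of the PER proteins in repression, had different regional orders. *Cry1* was highest in UVU, CUL4-5 and CENT2, at 40.7 ± 4.40 (SD, n = 3), 39.2 ± 2.76 (n = 4) and 37.2 ± 5.62 TPM (n = 4), and FRP was at 11.8 ± 2.87 TPM (n = 3). *Cry2* was highest in ACA and FRP, at 79.9 ± 2.85 (n = 3) and 76.8 ± 3.54 TPM (n = 3). For both genes all 17 pairs of neighbouring regions overlapped, so that only regions farther apart in the order were separated. The lowest region was VTA for both, at 6.04 ± 3.27 TPM for *Cry1* and 28.5 ± 14.6 TPM for *Cry2*. Without VTA replicate 1 VTA was still lowest for *Cry1*, at 7.67 TPM, but for *Cry2* its mean of 36.7 TPM lay above NTS, at 35.8 TPM, and CBN, at 36.3 TPM. *Cry2* exceeded *Cry1* in mean level in every adult region, and the gap was widest in the cortex.

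The REV-ERB genes and *Dbp*, all direct outputs of the activating pair, were together with *Cry2* the most abundant of the 10 in the adult brain. *Nr1d1* was highest in UVU, with 106.1, 121.3 and 118.8 TPM, and lowest in PB, with 41.0, 45.0 and 37.7 TPM. *Nr1d2* was highest in CUL4-5, with 90.03, 93.8, 90.9 and 90.3 TPM, and lowest in ENT, with 31.6, 31.4 and 21.6 TPM. The 4 parts of the cerebellar cortex lay above PVH, the next region for *Nr1d2*, without overlap. *Dbp* was highest in ACB, with 169.4, 129.7 and 131.3 TPM, and no ACB library overlapped CENT2, the next region, at 76.1, 87.7, 124.5 and 99.99 TPM. In VTA *Dbp* was at 11.9, 55.5 and 56.1 TPM, the first being the library that stood apart.

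Next, each division of the adult brain was compared with the mean of all other adult regions, each region counting equally. The log2 differences of the 10 genes are drawn side by side, and the divisions are taken in turn. The comparisons share their regions, so that they are not independent of each other.

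**Figure D2:**
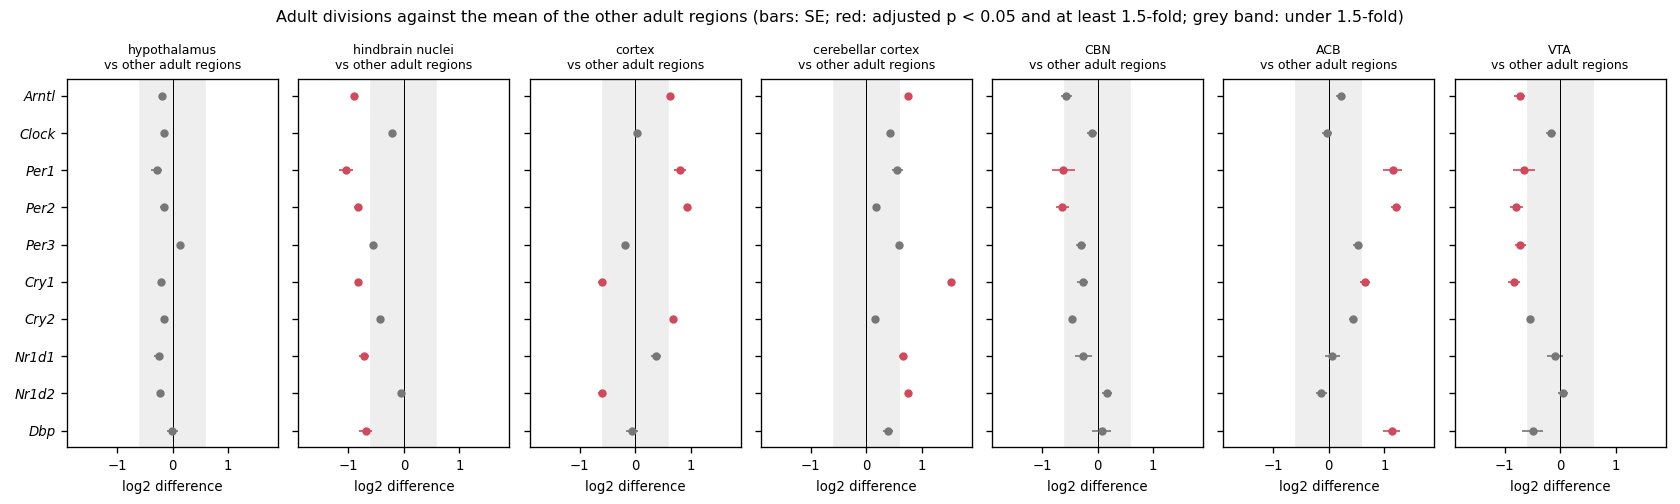
Log2 difference of each clock gene between a division and all other adult regions (points, edgeR estimate; bars, SE; grey band, under 1.5-fold). Red points were called; none was called in the hypothalamus, 6 were lower in the hindbrain nuclei and 4 were higher in the cerebellar cortex.

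In the 5 hypothalamic regions none of the 10 genes was called, against 18.7% of all genes. This count of 0 rests on the fold limit, since 9 of the 10 had an adjusted p under 0.05 with edgeR and also with DESeq2, with log2 differences between -0.29 (*Per1*) and 0.13 (*Per3*). By unadjusted p under 0.05 with edgeR 9 of the 10 passed, and so did 11283 of 17787 genes tested. *Dbp* did not differ detectably (-0.0066 ± 0.094, SE, adjusted p = 0.985). With limma on TPM values, 1 of the 10 had an adjusted p under 0.05. There 9043 of 15488 genes had an unadjusted p under 0.05 with log2(TPM + 0.5). *Per1* ran from 17.9 to 40.2 TPM over the 14 hypothalamic libraries, with a median of 31.6, and from 8.11 to 77.4 TPM elsewhere, with a median of 36.7. Within the hypothalamus *Per1* was at 35.9, 40.2 and 34.7 TPM in ARH and at 19.9, 21.8 and 17.9 TPM in LHA, and *Per3* at 23.5, 23.4 and 23.8 TPM in ARH and at 11.1, 11.95 and 11.4 TPM in LHA, so that LHA lay below ARH in every library of both genes. A list of markers of the suprachiasmatic nucleus, which lies close to some of these regions, summed in the hypothalamus to between 27.0 TPM in DMH and 1934 TPM in ARH. Of the 8 tested, 6 were called higher in the hypothalamus and 1 lower. The list was not specific to it, with 4 higher and 2 lower in the cortex, 3 and 2 in the hindbrain nuclei and 2 and 3 in the cerebellar cortex. Whether the punches held tissue of that nucleus was not tested.

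In the hindbrain nuclei (PB, NTS and DVC) 6 genes were lower and none was higher, against 17.9% of all genes called in either direction and 7.68% called lower. They comprised an activator, 3 repressors and 2 outputs. *Arntl* was at 9.80, 13 and 17.6 TPM (lowest, median and highest of 10 libraries), against 7.20, 25.3 and 46.9 TPM in the other 47, a log2 difference of -0.89 ± 0.06 (SE, adjusted p = 3.57e-18). *Per1* was at 12.8, 15.7 and 24.2 TPM against 8.11, 36.0 and 77.4 TPM, a difference of -1.04 ± 0.12 (adjusted p = 9.23e-10). The hindbrain libraries thus sat in the lower part of a range that overlapped them. *Per2* (-0.83 ± 0.07), *Cry1* (-0.82 ± 0.06), *Nr1d1* (-0.73 ± 0.09) and *Dbp* (-0.69 ± 0.11) were lower as well. *Per3* and *Cry2* had adjusted p under 0.05 but differed by less than 1.5-fold, and *Nr1d2* was close to the other regions (-0.06 ± 0.06, adjusted p = 0.43).

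Markers of oligodendrocytes, the myelinating cells, were called higher in the hindbrain nuclei, 5 of 5. Their summed level over the 5 genes, all of them detected, ran from 9572 to 14670 TPM in the hindbrain nuclei, from 579.4 to 2000 TPM in the cortex and from 1158 to 11110 TPM in the cerebellar cortex, and reached 17500 TPM in CBN. Across the 18 region means the correlation with this sum was -0.80 for *Cry2*, -0.79 for *Per2*, -0.76 for *Arntl* and *Per1* and -0.66 for *Nr1d1*. It was -0.49 for *Per3*, -0.48 for *Clock*, -0.37 for *Dbp*, -0.33 for *Cry1* and 0.06 for *Nr1d2*. The hindbrain calls included *Dbp* and *Cry1* but not *Cry2*, which had an adjusted p under 0.05 and missed only the fold limit. The points share the composition of each punch, and the part of that composition in the results was not tested. In tissue of mixed cells, fewer cells that express a gene and less RNA per cell cannot be told apart.

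In the cortex (ACA, FRP and ENT) 6 genes were called, against 30.7% of all genes. Of these 4 were higher and 2 lower, against 14.3% and 16.3% of all genes. *Per2* was at 11.1, 13.5 and 15.2 TPM (lowest, median and highest of 9 libraries) against 1.97, 7.44 and 20.3 TPM in the other regions, a log2 difference of 0.94 ± 0.06 (SE, adjusted p = 7.7e-18). *Per1* (0.81 ± 0.11), *Cry2* (0.68 ± 0.04) and *Arntl* (0.64 ± 0.05) were higher too. With limma on TPM *Arntl* lost this call (0.54 and 0.55 with the 2 pseudocounts), as did *Cry2* with one of them (0.58). *Cry1* (-0.60 ± 0.06) and *Nr1d2* (-0.60 ± 0.06) were lower, only just past the fold limit. Both lost the call with DESeq2 (-0.58 each). *Cry1* also lost it on leaving out any one of 16 libraries and *Nr1d2* on leaving out any one of 18, where the difference was -0.53 and -0.55 at the smallest. The sign held in each of these settings, so that the cryptochromes moved apart in the cortex.

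In the cerebellar cortex 4 genes were higher and none lower, against 33.2% of all genes called and 16.8% called higher. *Cry1* was at 20.4, 36.3 and 44.9 TPM over 15 libraries against 2.77, 12.3 and 31.2 TPM elsewhere, a log2 difference of 1.53 ± 0.05 (SE, adjusted p = 1.96e-30) and the largest of any of the 10 genes in any adult division. *Nr1d2* did not overlap, with 63.0, 84.7 and 93.8 TPM against 21.6, 46.5 and 60.4 TPM, and differed by 0.76 ± 0.05. *Arntl* (0.75 ± 0.04) and *Nr1d1* (0.66 ± 0.07) were higher as well, and the remaining 6 genes were higher at an adjusted p under 0.05 but by less than 1.5-fold. By unadjusted p under 0.05 with edgeR all 10 passed, and so did 13484 of 17787 genes tested. FL stood lower than the other cerebellar regions in *Arntl*, at 35.2, 26.7, 22.8 and 20.7 TPM against 36.5 to 46.9 TPM. Markers of granule cells, the main neurons of this cortex, correlated with *Nr1d2* (0.88) and *Cry1* (0.77) across the 18 region means, and the part of cell composition was not tested.

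In CBN 2 genes were called, both lower, against 22.6% of all genes called and 7.77% called lower. *Per1* was at 16.0, 26.1 and 15.9 TPM, against a median of 34.2 TPM in the other regions, with a log2 difference of -0.62 ± 0.20 (SE, adjusted p = 0.0105). *Per2* was at 5.62, 5.37 and 4.21 TPM against 8.92 TPM, with -0.64 ± 0.12 (adjusted p = 1.26e-05). Both calls depended on single libraries: without CBN replicate 1 or replicate 3 the *Per1* difference was -0.50 in each case (adjusted p = 0.104 and 0.102), and without replicate 3 *Per2* stood at -0.53, under 1.5-fold. With batch as a factor *Per1* was at -0.57, under 1.5-fold as well. Choroid plexus markers, a sign of tissue lining the ventricle, summed to between 3540 and 12750 TPM in CBN and to 43.8 TPM at most in the hypothalamus, with 10710 TPM in the highest hindbrain library, and their part was not tested.

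In ACB, the ventral part of the striatum, 4 genes were higher, against 24.3% of all genes called and 12.6% called higher. *Per2* differed by 1.21 ± 0.09 on the log2 scale (SE, adjusted p = 9.48e-15), *Per1* by 1.15 ± 0.17 (adjusted p = 1.58e-07) and *Dbp* by 1.13 ± 0.16 (adjusted p = 4.24e-08). Each of the 3 *Dbp* libraries, at 129.7 TPM or more, lay above all 54 other adult libraries, which reached 124.5 TPM. *Cry1*, at 23.8, 31.2 and 19.2 TPM, differed by 0.65 ± 0.09 and fell to 0.56, under the fold limit, without ACB replicate 2. The activators were near the other regions, *Arntl* at 0.21 ± 0.08 and *Clock* at -0.03 ± 0.09. Of 10 immediate early genes, which neurons switch on within minutes of activity, 7 were higher in ACB and 1 lower, their summed level running from 406.1 to 954 TPM there and from 79.9 to 123.5 TPM in the hindbrain nuclei. The same list had 10 of 10 higher in the cortex and 9 of 10 lower in the hindbrain nuclei. All 5 microglia markers were higher in ACB, where they summed to between 193.5 and 203.6 TPM, and the part of either list was not tested.

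In VTA 5 genes were lower, against 20.9% of all genes called and 8.58% called lower. With all 3 libraries the log2 differences were -0.84 ± 0.11 for *Cry1*, -0.79 ± 0.12 for *Per2*, -0.73 ± 0.09 for *Arntl*, -0.71 ± 0.09 for *Per3* and -0.65 ± 0.20 for *Per1* (SE). Without VTA replicate 1 they were -0.73, -0.73, -0.81, -0.59 and -0.58, and all but *Per1* (adjusted p = 0.061) remained called. *Per1* also lost its call without VTA replicate 2 (-0.52, adjusted p = 0.0746). *Nr1d1* moved the other way on removal of replicate 1, from -0.09 to -0.42 (adjusted p = 0.0392, under 1.5-fold), and in that library it was at 40.6 TPM, beside 38.2 and 52.7 TPM in the other two. *Clock* moved from -0.17 to -0.39.

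Embryonic brain was compared with the adult regions next, which asks how far the clock transcripts are expressed at E14.5. Embryonic and adult libraries came from different batches, so that stage and batch cannot be told apart. Against a background of 53.9% of all 19980 genes called in either direction and 27.5% called lower, 9 of the 10 clock genes were lower in the embryo and *Cry1* was not called.

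**Figure D3:**
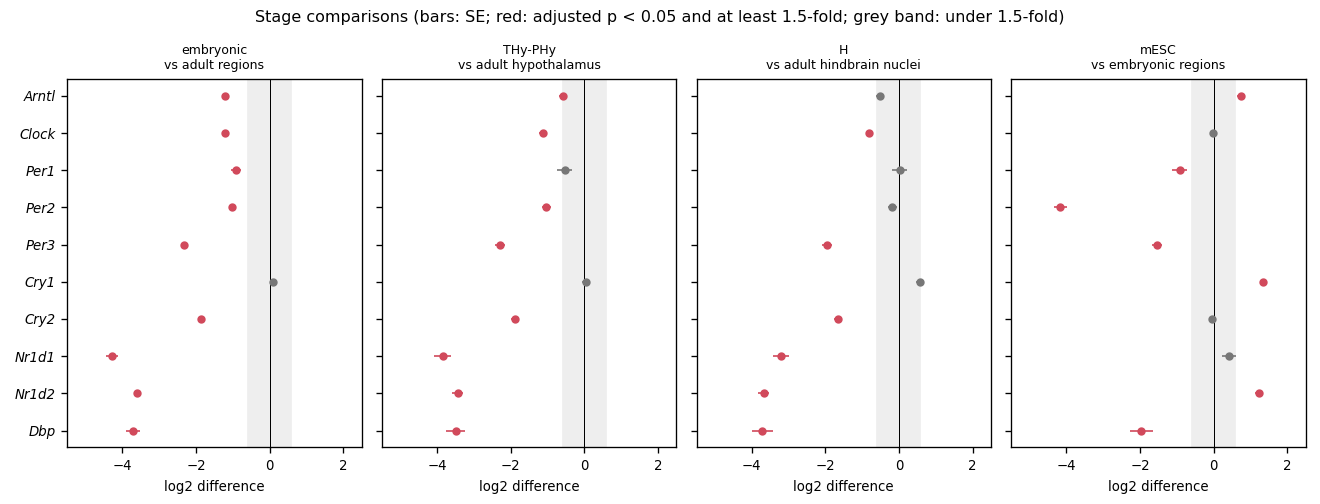
Log2 difference of each clock gene in 4 stage comparisons (points, edgeR estimate; bars, SE; red, called; grey band, under 1.5-fold). *Nr1d1*, *Nr1d2* and *Dbp* lie farthest to the left in the 3 embryonic comparisons, and *Per2* in that of mESCs.

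The outputs of the loop differed most. *Nr1d1* was at 3.28, 4.54 and 6.52 TPM (lowest, median and highest of 9 embryonic libraries) against 37.7, 72.1 and 133.2 TPM in the 57 adult ones, a log2 difference of -4.29 ± 0.17 (SE, adjusted p = 2.72e-29). *Dbp* was at 2.81, 5.08 and 9.10 TPM against 11.9, 71.4 and 169.4 TPM, with -3.72 ± 0.19. *Nr1d2* was at 3.18, 3.63 and 8.54 TPM against 21.6, 48.5 and 93.8 TPM, with -3.59 ± 0.10. For these 3 genes no embryonic library reached an adult one. Cell type markers differed along with them: all 5 oligodendrocyte markers and all 6 astrocyte markers were lower in the embryo, the astrocyte markers summing to between 150.8 and 346.2 TPM against at least 549.7 TPM in every adult division, and all 5 markers of dividing progenitors were higher. Their part in the stage differences was not tested.

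The repressors and activators differed less. *Per3* was lower by -2.32 ± 0.09 and *Cry2* by -1.86 ± 0.07 on the log2 scale. *Arntl* (-1.22 ± 0.07), *Clock* (-1.20 ± 0.07), *Per2* (-1.02 ± 0.08) and *Per1* (-0.91 ± 0.13) followed. *Cry1* was at 9.59, 14.4 and 19.5 TPM against 2.77, 13.1 and 44.9 TPM in the adult, and its difference was 0.09 ± 0.06 (adjusted p = 0.225). *Cry1* and *Cry2* thus stood at like levels in the embryo, with means of 14.6 and 15.2 TPM, whereas the adult means were 18.2 and 54.2 TPM.

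Matched regions were compared next. In THy-PHy, against the 5 adult hypothalamic regions, 8 genes were lower, against 52.8% of all genes called and 27% called lower. *Nr1d1* was at 4.54, 5.55 and 5.58 TPM against 42.8, 65.4 and 81.6 TPM, a log2 difference of -3.85 ± 0.22 (SE, adjusted p = 1.29e-21). *Arntl*, at 13.3, 17.1 and 13.4 TPM, stood at -0.59 ± 0.10, and this call sat on the 1.5-fold limit and was lost in 6 alternative settings and on leaving out any one of 18 libraries. *Per1* (-0.53 ± 0.20) and *Cry1* (0.05 ± 0.11) were not called.

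In H, against the 3 adult hindbrain nuclei, 6 genes were lower, against 58.2% of all genes called and 28% called lower. *Nr1d2*, at 5.73, 3.33 and 3.63 TPM against 43.3, 47.3 and 49.7 TPM, differed by -3.67 ± 0.15 on the log2 scale (SE, adjusted p = 6.12e-28). *Dbp* differed by -3.71 ± 0.28 and *Nr1d1* by -3.21 ± 0.22. *Per1*, at 11.96, 16.98 and 18.2 TPM against 12.8, 15.7 and 24.2 TPM, did not differ detectably (0.02 ± 0.20, adjusted p = 0.952), nor did *Per2* (-0.18 ± 0.12, adjusted p = 0.184). *Cry1* was at 9.59, 10.6 and 13.5 TPM, with 0.57 ± 0.11, and was called by DESeq2.

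Whether the difference between stages differed between the matched regions was tested by subtracting the hindbrain contrast from the hypothalamic one, a test added after the data were seen. It called 1 of the 10 genes, against 19.2% of all genes. *Per2* was at 4.22, 3.53 and 3.74 TPM in THy-PHy and at 2.86, 4.48 and 4.93 TPM in H, while the adult medians were 8.53 TPM in the hypothalamus and 4.63 TPM in the hindbrain nuclei. The difference between the contrasts was -0.85 ± 0.17 on the log2 scale (SE, adjusted p = 0.000134). For *Cry1* it was -0.51 ± 0.15 (adjusted p = 0.00887), under 1.5-fold.

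In mESCs, which keep the pluripotent state and are known to lack a running clock, the 4 libraries were compared with the embryonic regions. The mESC libraries came from a separate batch, and by the study's methods their RNA was extracted with other reagents than that of the punches. Cell source, batch and extraction therefore cannot be told apart here. Of the 10 genes 3 were higher and 4 lower, against 67.2% of all genes called, 33.2% higher and 34.1% lower. These counts were near the background and do not set the clock genes apart. *Per2* was at 0.159, 0.206, 0.150 and 0.191 TPM, from 10 to 15 reads per library, against 2.86, 4.22 and 5.05 TPM in the embryonic brain, a log2 difference of -4.16 ± 0.17 (SE, adjusted p = 3.62e-28). *Dbp* was at 1.02, 1.84, 0.503 and 1.20 TPM, from 8 to 29 reads, with -1.96 ± 0.31 (adjusted p = 9.84e-08). At so few reads the counting error of these values is large, and no mESC library overlapped the embryonic ones in either gene.

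*Cry1* was at 41.0 and 32.4 TPM in B6-1 and at 31.7 and 25.1 TPM in B6-2, above all 9 embryonic libraries, with a log2 difference of 1.35 ± 0.10 (SE, adjusted p = 5.2e-18). *Nr1d2* was higher (1.23 ± 0.11) and so was *Arntl* (0.74 ± 0.09), whose call was lost with limma on TPM (0.35 and 0.36 with the 2 pseudocounts), while *Per3* (-1.54 ± 0.14) and *Per1* (-0.92 ± 0.20) were lower. *Clock* (-0.0034 ± 0.092), *Cry2* (-0.04 ± 0.09) and *Nr1d1* (0.41 ± 0.19) were not called. The *Nr1d2* median was 8.58 TPM in mESCs and 3.63 TPM in the embryonic brain, with F, at 8.54 TPM, inside the mESC range, and the *Arntl* libraries overlapped as well.

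The last comparison was between batches, in which collection and preparation of the samples cannot be told apart. The 57 adult libraries fell into 5 batches of 11, 15, 14, 15 and 2 libraries, and a model with region and batch asked whether a gene differed among batches within regions. As regions of a batch appear to share mice, this compares 5 sets of mice and not 57 independent samples, and its p-values are too small for a statement about batches in general. Of the 10 clock genes 3 passed an adjusted p under 0.05, against 2.87% of all genes. These were *Per1* (log2 range among batches 0.64, adjusted p = 4.81e-10), *Nr1d1* (0.43, adjusted p = 0.000749) and *Dbp* (0.55, adjusted p = 0.00191). The replicate number, used in place of batch, called none of the 10 with edgeR, against 0.0169% of all genes (2 of the 10 had an unadjusted p under 0.05).

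**Figure D4:**
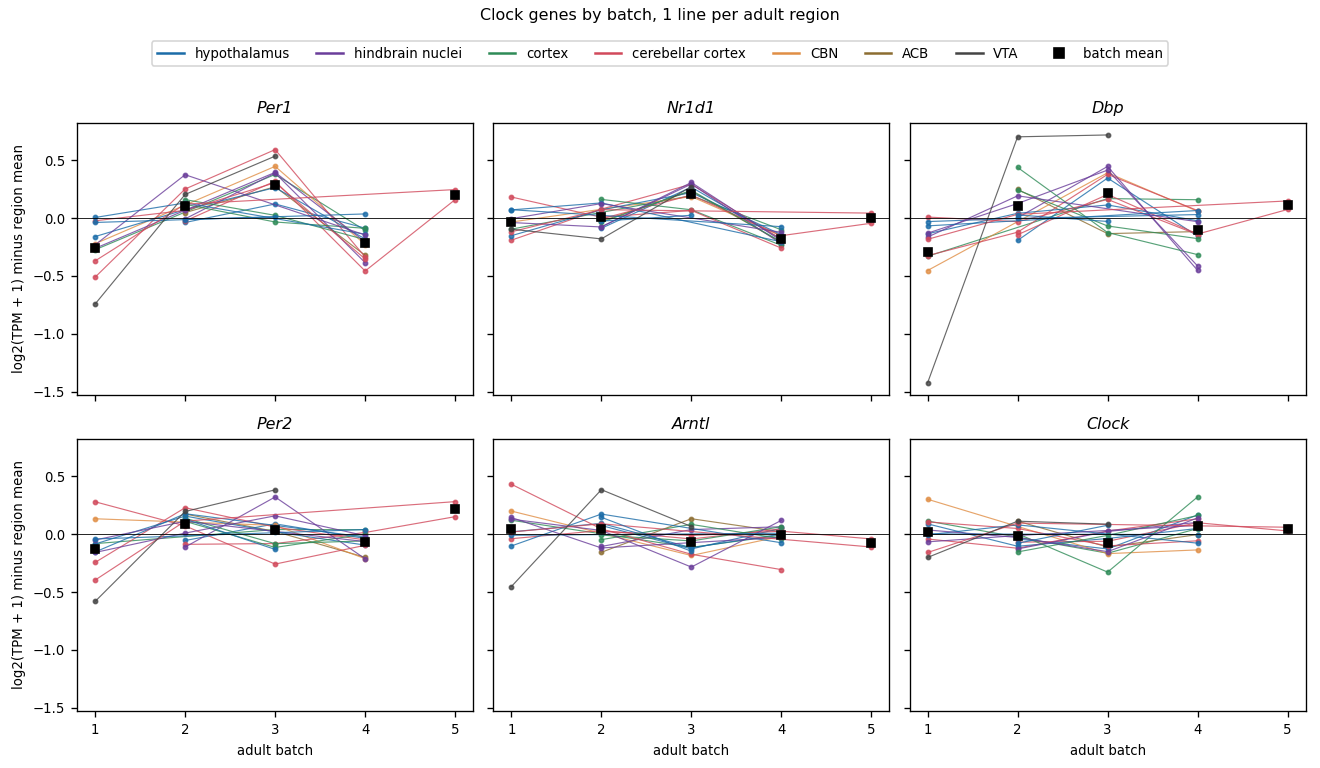
Clock gene levels by adult batch, as log2(TPM + 1) minus the region mean (points for single libraries, lines for the libraries of a region, black squares for batch means). *Per1* and *Nr1d1* run higher in batch 3 than in batch 4 in all 12 regions that both batches share, and the line that starts lowest for *Dbp* is VTA.

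The 12 regions with libraries in both batch 3 and batch 4 show the size of the difference. *Per1* was higher in batch 3 in 12 of 12 regions, with a mean of 45.3 TPM against 31.4 TPM. The mean of the log2 ratios over regions, of TPM + 0.5, corresponded to a factor of 1.46, and the factors that follow are of this kind. In CENT2 it was at 61.0 TPM in batch 3 and 31.6 TPM in batch 4, in DVC at 24.2 and 13.7 TPM and in FRP at 52.2 and 50.2 TPM, so that the difference ran from nearly 2-fold to almost none. *Nr1d1* was higher in 12 of 12 as well, at 87.9 against 66.5 TPM, a factor of 1.32 with little spread between regions (SD 0.08 on the log2 scale). *Dbp* was higher in 11 of 12, by 1.26, ACB being the exception with 129.7 and 131.3 TPM.

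The activators leaned the other way. *Clock* was lower in batch 3 in 12 of 12 regions, by 1.14-fold, and *Arntl* in 9 of 12, by 1.05-fold. Of the 15488 genes with enough signal in these regions, 1.17% moved in one direction in all 12, and 3 of the 10 clock genes did. Neither activator passed the test over all batches, at an adjusted p of 0.347 for *Clock* and 0.216 for *Arntl*. In the model *Arntl* was lower in batch 3 than in batch 1 (-0.20 ± 0.06 on the log2 scale, SE, adjusted p = 0.0376), where 6.01% of all genes were called.

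*Per1* separated the batches most finely. It was higher in batch 3 than in batch 1 (0.64 ± 0.07 on the log2 scale, SE, adjusted p = 1.07e-08), in batch 2 than in batch 1 (0.38 ± 0.07, adjusted p = 0.00239, 0.101% of all genes called) and in batch 3 than in batch 2 (0.26 ± 0.06, adjusted p = 0.00721, 1.8% called). It was lower in batch 4 than in batch 3 (-0.62 ± 0.06, adjusted p = 5.04e-10, 3.08% called) and than in batch 2 (-0.36 ± 0.06, adjusted p = 0.000406, 0.231% called). Batches 1 and 4 did not differ detectably (0.02 ± 0.06, adjusted p = 0.934, 0.0562% of all genes called), so that *Per1* put batches 2 and 3 above batches 1 and 4. *Per2* had an adjusted p of 0.0583 over all batches and was called by DESeq2 (adjusted p = 0.0124).

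The batch test was also run by division, the regions outside the hypothalamus holding more libraries. In the 5 hypothalamic regions alone none of the 10 genes was called with edgeR, against 0.0182% of all genes. The count of 0 thus does not set the clock genes apart there. Of the 10, 2 had an unadjusted p under 0.05, *Per1* at 0.00207 and *Nr1d1* at 0.00274. The other regions alone called 3, against 1.94% of all genes. The log2 range within the hypothalamus was 0.45 for *Per1*, 0.48 for *Nr1d1* and 0.30 for *Dbp*. Over all regions it was 0.64, 0.43 and 0.55, so that only *Nr1d1* had as wide a range in the hypothalamus. Without VTA replicate 1 the 3 calls stood, at an adjusted p of 1.29e-10 for *Per1*, 1.7e-09 for *Nr1d1* and 0.00357 for *Dbp*. The 9 embryonic libraries, in 3 other batches, gave no call among the 10 genes or among 17366 genes in all with edgeR (none of the 10 had an unadjusted p under 0.05), a test added after the data were seen.

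Other gene lists moved with batch as well. Of the 10 immediate early genes 8 were called among batches, and on average all 10 were higher in batch 3 than in batch 4, with a median log2 difference of 0.68. Of 6 glucocorticoid-responsive genes, induced in stress and by the daily hormone peak, 5 were called and 6 were higher in batch 3, with a median of 0.56. Of 7 genes that respond to temperature 3 were called. Among cell type lists, 3 of 5 choroid plexus, 3 of 5 endothelial, 3 of 5 dividing progenitor, 2 of 6 pituitary and 1 of 6 astrocyte markers were called, and none of those for neurons, oligodendrocytes, microglia and granule cells. Markers of the suprachiasmatic nucleus gave no call among the 8 tested. The part of these lists in the batch differences of the clock genes was not tested.

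**Figure D5:**
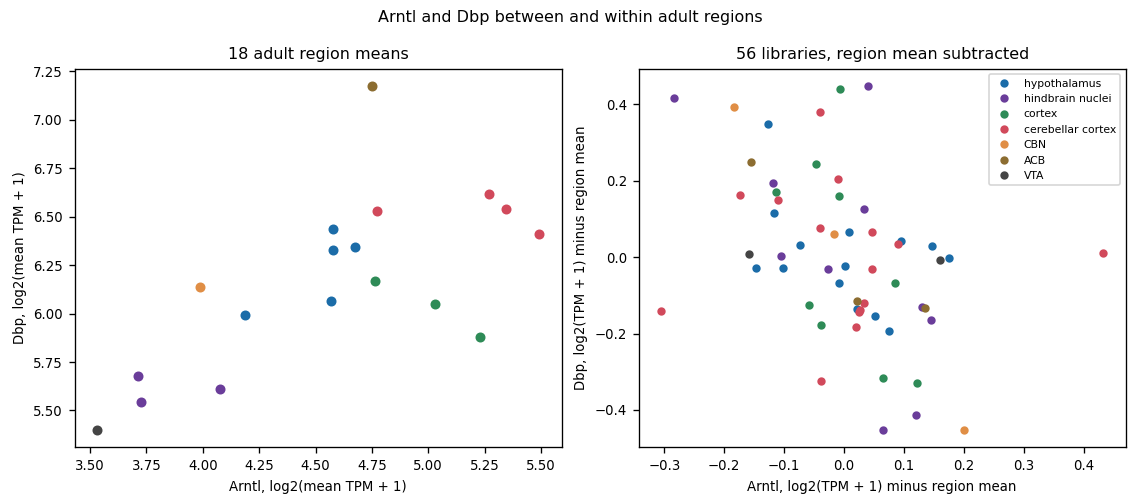
*Dbp* against *Arntl* for the 18 adult region means (left, log2 of mean TPM + 1) and for 56 single libraries without VTA replicate 1 (right, log2(TPM + 1) minus the region mean), coloured by division. The region means rise together, with a correlation of 0.66, and the libraries within regions run the other way, at -0.43.

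Within regions *Per1*, *Nr1d1* and *Dbp* moved together, and without VTA replicate 1 *Arntl* and *Clock* leaned against them, as a description over libraries that share batches and mice. Over the 56 adult libraries other than VTA replicate 1, with each library set against its region mean, *Per1* correlated with *Nr1d1* at 0.81 and with *Dbp* at 0.73. *Arntl* correlated with *Dbp* at -0.43 and with *Per1* at -0.31, and *Clock* with *Dbp* at -0.38 and with *Nr1d1* at -0.36, while the value for *Arntl* and *Nr1d1* was only -0.13. With VTA replicate 1 these values were 0.13 for *Arntl* and *Dbp*, -0.0122 for *Arntl* and *Per1*, -0.0495 for *Clock* and *Dbp* and -0.32 for *Clock* and *Nr1d1*, so that apart from the last the leaning rests on leaving out that library. Across the 18 region means the picture was the reverse, *Arntl* correlating with *Nr1d1* at 0.95 and with *Dbp* at 0.66.

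Reads of *Nr1d1* and *Dbp* may be shared with genes that overlap them on the other strand, because no strand setting is stated for the counting, although the libraries were made with a strand-specific kit. *Thra*, which overlaps *Nr1d1*, had a median of 400.6 TPM in the adult libraries, and *Sphk2*, which overlaps *Dbp*, had 22.4 TPM. Neither differed among batches (adjusted p = 0.363 and 0.738 by edgeR). Between embryo and adult they differed by -0.53 and -0.27 on the log2 scale, beside -4.29 and -3.72 for the clock genes. By division, *Thra* was at -0.34 in the hindbrain nuclei, where *Nr1d1* was lower as well. It was at -0.31 in the cerebellar cortex, where *Nr1d1* was higher. *Sphk2* was at 0.16 in the hindbrain nuclei, where *Dbp* was lower, and at -0.20 in ACB, where *Dbp* was higher. Whether reads were shared was not tested.

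A further 19 genes of the clock pathway were examined as a list, comprising paralogues of the activators, repressors, ROR receptors, D-box factors, kinases, ubiquitin ligases and the deubiquitinase *Usp2*. All 19 differed among adult regions, as did 90.2% of all genes tested. In the hindbrain nuclei 5 were lower and none higher, against 7.68% of all genes called lower, with a list median of -0.49 on the log2 scale against -0.01 for all genes. These included *Npas2*, the paralogue of *Clock* (-1.12 ± 0.08, SE), *Hlf*, a D-box factor (-1.04 ± 0.09), and *Rora*, an activator of *Arntl* (-0.74 ± 0.09). In VTA, with VTA replicate 1 included, 7 were lower and none higher, against 8.58% of all genes called lower. The count without that library is not given here.

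*Rora* and *Rorb*, whose products compete with the REV-ERB proteins, differed by division. *Rora* was lower in ACB (-1.73 ± 0.18 on the log2 scale, SE, 8.86 against 35.0 TPM in the mean of the other regions), and *Rorb* was higher in the hypothalamus (0.93 ± 0.08) and in the cortex (0.80 ± 0.09) and lower in the cerebellar cortex (-1.17 ± 0.09). Over the list, the hypothalamus had 2 higher and 1 lower, the cortex 5 higher and 4 lower, the cerebellar cortex 6 higher and 2 lower, CBN 1 higher and 3 lower, and ACB 4 higher and 4 lower. The shares of all genes called in these 5 comparisons were 18.7%, 30.7%, 33.2%, 22.6% and 24.3%, so that the counts of the hypothalamus and CBN were near the background. In the hypothalamus the one lower gene was *Usp2* (-1.01 ± 0.07, 22.8 against 51.1 TPM).

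Between stages 14 of the 19 were lower in the embryonic brain and 4 higher, against 53.9% of all genes called, with a list median of -1.16 on the log2 scale, while the median of all genes was near 0. *Npas2* fell furthest (-4.01 ± 0.15, SE, 0.764 against 12.2 TPM), followed by *Rora* (-2.69 ± 0.18). In THy-PHy and in H alike 12 were lower and 3 higher, against 52.8% and 58.2% of all genes. In mESCs 10 were lower than in the embryonic brain and 4 higher, near the 67.2% of all genes called.

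Among batches 2 of the 19 were called, against 2.87% of all genes, *Ciart* (log2 range 0.53, adjusted p = 5.02e-06) and *Usp2* (0.37, adjusted p = 0.00141), both of which are known to cycle with the clock. *Ciart*, whose promoter window held 3 E-boxes, was higher in batch 3 than in batch 4 in 10 of 12 regions, at 24 against 18.8 TPM on average, and in 7 of 7 regions shared by batches 3 and 1, at 25.9 against 17.2 TPM, where 2.61% of all genes moved in one direction in all 7. *Usp2* was higher in batch 3 in 10 of 12, at 53.7 against 43.7 TPM. The next by p, *Tef*, *Npas2* and *Nfil3*, had an adjusted p of 0.0911, 0.18 and 0.326.

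Lastly, the genes whose pattern was most like that of a clock gene were listed, with a Pearson correlation of log2(TPM + 1). Within regions over 57 adult libraries these were *Mxd4* (0.92), *Garem2*, *Ccdc117*, *Dedd2* and *Lzts2* for *Dbp*, and *Syne1* (0.78), *Cdc23*, *Grk5*, *Kcnip3* and *Trim9* for *Arntl*. Without VTA replicate 1 *Mxd4* stayed first for *Dbp* at 0.82 and *Syne1* for *Arntl* at 0.69. Over the 24 group means *Nr1d1* was most like *Fam107a* (0.99), *Phyhip* and *Dgkg*, *Per3* most like *Ppp4r4* (0.97), *Cd46* and *Hipk3*, and *Cry1* most like *Usp36* (0.94), *Esco1* and *Helq*.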

How the data were processed

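RNA of 70 samples, pooled punches of 18 adult and 4 embryonic regions and 2 mESC lines, was measured by single-read mRNA sequencing. Per the labels, reads were processed with CASAVA 1.8.2 and kallisto on GRCm38. The authors deposited estimated counts and TPM per transcript and TPM per gene, and did not normalize counts between samples. Libraries were strand-specific, and the strand setting of the counting is not given in the sources used here.

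Estimated counts were summed per gene over 107987 of 109282 transcripts and rounded. edgeR 4.0.16 (R 4.3.3) fitted quasi-likelihood models with TMM scaling after its default filter, over the 57 adult or all 70 samples with group as the only term, and over adult region and batch for the batch test. Benjamini-Hochberg adjustment ran over all genes tested. Nothing states that replicates of an mESC line were separate cultures, so there the spread may be technical. Pluripotency markers and others served as checks of the labels. Alternatives used DESeq2 1.42.0, its size factors, limma 3.58.1 on log2(TPM + 0.5) and log2(TPM + 0.1), no filter, other fold limits, batch or replicate number as a factor, and each sample left out in turn. The fits were first tested on simulated data.

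All 10 clock genes were named, with the 3 most changed called genes of a list of 19 other clock genes per comparison (in the batch test, the 5 with the smallest p) and the genes most like a member. Results of 1 gene of that list are not reported here. The members, lists and divisions were chosen with earlier results of these data known. Promoter sequences came from RefSeq (GRCm38.p6).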

Additional observations from a re-analysis of the deposited data

Results flagged for a closer look

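The change of *Per2* between embryo and adult differed between the matched regions: the hypothalamic contrast minus the hindbrain contrast was -0.847 ± 0.169 on the log2 scale (SE, adjusted p = 0.000134 by edgeR). In THy-PHy *Per2* stood at -1.03 against the adult hypothalamus, and in H at -0.18 against the adult hindbrain nuclei, with adult means of 8.34 and 4.97 TPM, while the embryonic libraries of both regions lay between 2.86 and 4.93 TPM. Among 50 checks of single libraries, in the adult regions with 4 libraries, none stood apart from its group by Dixon's test, which chance would flag in about 1 of 20.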

How the results depend on the processing

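Counts of called clock genes kept within 1.5 times the main count in most settings, and no called gene changed sign in any. Without a minimum fold the counts were 9 for the hypothalamus, 10 for the cerebellar cortex, 6 for CBN and 7 for ACB. Of 17787 genes tested, 11283, 13484, 9534 and 9613 had an unadjusted p under 0.05 by edgeR in these comparisons, in that order. With at least a 2-fold difference the counts of clock genes were 1 for the hindbrain nuclei, 0 for the cortex, 1 for the cerebellar cortex, 0 for CBN and 0 for VTA. The share of all genes at 2-fold is not given here. With limma on TPM the cortex had 3 (log2(TPM + 0.5)) and VTA had 9 with either pseudocount. On the TPM scale the median of all genes stood at -0.52 for VTA, -0.46 for mESCs, -0.12 for H, -0.12 for the cortex, -0.10 for CBN and 0.13 for the cerebellar cortex (log2(TPM + 0.1)), and near 0 for TMM-scaled counts. With batch as a factor CBN had 1. For the batch test the hypothalamic regions alone gave 0, against 0.0182% of all genes. The replicate number used as a block in place of the batch gave 0, against 0.0169%.

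Leaving out one library at a time gave 10 to 10 genes for the differences among adult regions, 0 to 0 for the hypothalamus, 6 to 7 for the hindbrain nuclei, 4 to 6 for the cortex, 4 to 6 for the cerebellar cortex, 1 to 2 for CBN, 4 to 4 for ACB, 4 to 7 for VTA, 9 to 9 for the embryonic regions, 7 to 8 for THy-PHy, 6 to 8 for H, 7 to 7 for mESCs and 3 to 4 for batches. The call of *Arntl* in THy-PHy was lost in 6 further settings, with a value of -0.57 without the filter and -0.58 with the replicate block, and the block changed no other call outside the batch test. Same-numbered replicates deviated together only weakly, with a median correlation of 0.0231 and 21.8% of pairs above 0.1. Pairs of the same batch were at 0.0353 and 25.5%. A pair that shared both number and batch was counted in both sets, so that these values do not compare number with batch. Pairs that shared neither number nor batch had -0.0135 and 10.6%. The numbers were not treated as pairs in the main models. With 2 or 3 libraries in most groups, single pools can decide calls near the fold limit, and differences under 1.5-fold were left uncalled by rule. Depth limits only the mESC values of *Per2*, *Per3* and *Dbp*. Causes of these changes were not tested.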

Other observations

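In the embryonic brain the forebrain library F held the highest *Nr1d2* level, 8.54 TPM, against 3.18 to 5.73 TPM in the other 8 embryonic libraries, and with 1 library it has no replicate check. ENT replicate 3, of batch 3, was at 14.1 TPM for *Clock*, 6.02 TPM for *Per3* and 21.6 TPM for *Nr1d2*, while the other ENT libraries were at 22.7 and 17.99, 8.89 and 9.59, and 31.6 and 31.4 TPM. FL replicate 1, of batch 1, was at 35.2 TPM for *Arntl* and the other FL libraries at 26.7, 22.8 and 20.7 TPM.

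Astrocyte markers summed to between 1142 and 1397 TPM in the cerebellar cortex and between 549.7 and 700.6 TPM in VTA, and their sum correlated over the 18 region means with *Clock* at 0.89, with *Cry1* at 0.88 and with *Nr1d1* at 0.84. Neuron markers correlated with the same 3 genes at 0.20, 0.03 and 0.31. These are descriptions over region means that share the composition of each punch.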
